A study of Mus musculus with 48 samples.

Results

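TRBJ2-1, TRBJ2-2, TRBJ2-5 and TRBJ2-7 are joining (J) segments of the mouse T cell receptor (TCR) β locus, and their use was measured in the TCRβ repertoires of T cells from bilateral tumors and their draining lymph nodes (dLNs). Every clone record assigned to one of the 4 segments was taken, with no selection on its frequency. These were 492806 of the 959731 clone records in 48 libraries, or 51.3%. TRBJ2-7 accounted for 203282 records, TRBJ2-1 for 127310, TRBJ2-5 for 109762 and TRBJ2-2 for 52452.

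A TCRβ chain is assembled in the developing T cell by joining a D segment to a J segment and then a V segment to the joined DJ. Bases are trimmed from the segment ends and random bases are added at each junction, and the stretch that spans the junctions is the complementarity determining region 3 (CDR3), the part of the receptor that mostly meets the peptide antigen. The J segment supplies the 3′ end of the CDR3. The mouse locus carries a pair of D-J-C clusters in a row, so that TRBD1 can be joined to segments of either J cluster, while TRBD2 lies downstream of the TRBJ1 cluster and is normally joined to TRBJ2 segments.

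The samples came from 4 female C57BL/6 mice, numbered 5 to 8, 8 weeks of age, with no treatment other than the subcutaneous inoculation of Lewis lung carcinoma (LLC) cells, a lung tumor line of the same strain, into both sides of the back. On day 13, CD8+ and CD4+ T cells were sorted from the left and right tumor, and the CD44hi cells of both subsets, that is antigen-experienced cells, from the left and right dLN. In each sort, cells stained by an antibody to CD45.2 given intravenously were excluded, so that the T cells were those outside the blood vessels. The tables hold TCRβ sequences, so that the sorted cell types could not be checked against other marker genes. The CD44hi gate was used for the dLN only, so that tissue and gate cannot be told apart in a comparison of tumor with dLN. Each tumor was divided in 2 parts that were sequenced as separate libraries, whose reads were summed here. The 4 groups were CD8+ dLN and CD4+ dLN with 8 libraries each, and CD8+ tumor and CD4+ tumor with 16 each.

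The libraries held between 326582 and 4840722 reads and were drawn to 6 reads per sorted cell, which left 131070 to 2035380 reads and 3603 to 47063 clones. Records with identical V segment, CDR3 bases and J segment were 1 clone. The read share of a J segment is the percentage of the reads of a sample in clones with that segment, and the clone share is the percentage of its distinct clones, each counted once. The left and right values were averaged for each mouse, and groups were compared over the 4 mice with limma on log2 shares, with Benjamini-Hochberg adjustment over the 12 J segments tested. The mice are separate animals. The libraries were made from RNA, so that a higher read share can come from more cells or from more RNA per cell, which cannot be told apart in bulk samples.

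The germline segments are shown because their 5′ ends set how much of a CDR3 each can supply. They lie in this order on the plus strand of chromosome 6 in GRCm38, TRBJ2-1 from 41542754 to 41542803, TRBJ2-2 from 41542957 to 41543007, TRBJ2-5 from 41543453 to 41543501 and TRBJ2-7 from 41543810 to 41543856, each annotated as a TCR J gene. TRBD2 ends 578 bases before TRBJ2-1, and the constant region gene Trbc2 starts 2874 bases after TRBJ2-7. The sequences below are those of the annotated genes, 5′ to 3′, and the capitals mark the part that belongs to the CDR3, up to and including the codon of its last residue.
TRBJ2-1: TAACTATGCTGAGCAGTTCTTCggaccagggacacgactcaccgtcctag
TRBJ2-2: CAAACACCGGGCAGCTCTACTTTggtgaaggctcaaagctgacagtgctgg
TRBJ2-5: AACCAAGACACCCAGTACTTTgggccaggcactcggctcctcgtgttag
TRBJ2-7: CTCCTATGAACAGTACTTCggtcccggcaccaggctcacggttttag

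The CDR3 part was 23 bases long in TRBJ2-2, 22 in TRBJ2-1, 21 in TRBJ2-5 and 19 in TRBJ2-7. Aligned from the last CDR3 base backwards, TRBJ2-1 and TRBJ2-7 had 13 of 19 bases in common, the most of any pair among the 4. TRBJ2-2 and TRBJ2-5 shared the last 6 bases of the CDR3 part without a break, and TRBJ2-1 and TRBJ2-7 shared the last 4. The other pairs differed at the last base.

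Counted once per clone, the use of the 4 segments was nearly the same in every mouse and differed between the T cell subsets. Together they made up 51.9% of the clones in CD8+ dLN and 53.4% in CD8+ tumors, against 47.4% in CD4+ dLN and 47.3% in CD4+ tumors. TRBJ2-7 was the most used of all J segments in each of the 4 groups, and TRBJ2-2 the least used of the 4, at rank 8 to 10 of 12. TRBJ2-1 was at rank 2 in CD8+ T cells and at rank 5 in CD4+ dLN and 3 in CD4+ tumors, where TRBJ2-5 was at rank 2. The SD over mice was between 0.0349 and 0.390 percentage points in all groups.

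**Figure D1:**
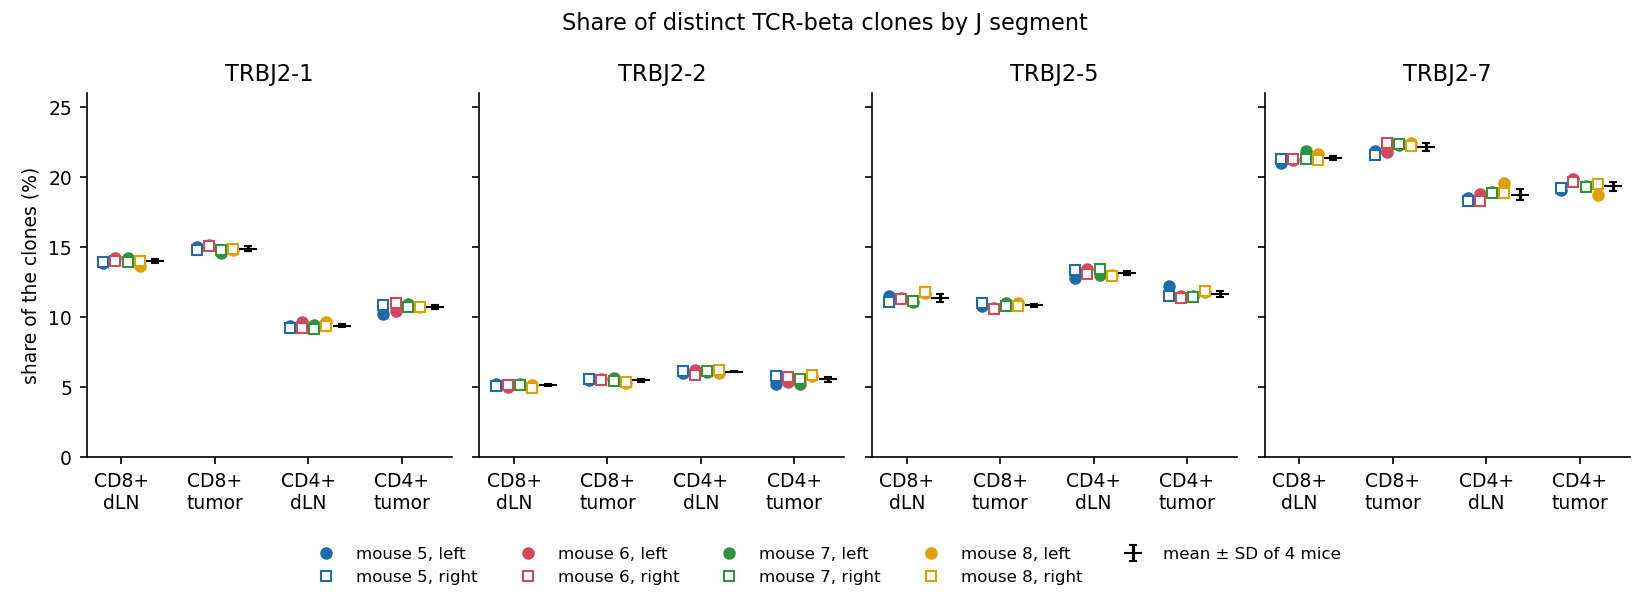
Share of distinct clones (%) with each of the 4 segments in the 4 groups. Each filled circle is the left and each open square the right sample of a mouse, and the black bar is the mean ± SD of 4 mice. The CD8+ and CD4+ samples stand apart for TRBJ2-1 in both tissues, with means of 14.0% and 14.9% in CD8+ against 9.41% and 10.7% in CD4+ T cells.

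Of the 4 segments, TRBJ2-1 showed the largest distance between the subsets. Its clone share in the CD8+ dLN was 13.9%, 14.1%, 14.1% and 13.9% in mice 5, 6, 7 and 8, and in the CD4+ dLN it was 9.33%, 9.45%, 9.30% and 9.55%. The CD4+ samples were all lower. On the log2 scale, CD4+ minus CD8+ was -0.57 with a standard error (SE) of 0.02 (limma adjusted p = 1.34e-11). All 4 segments passed the test between the dLN subsets, where 91.7% of the J segments did: TRBJ2-7 was lower in CD4+ T cells by a log2 difference of -0.19 (adjusted p = 1.19e-06), and TRBJ2-2 and TRBJ2-5 were higher, by 0.25 (adjusted p = 3.21e-08) and 0.21 (adjusted p = 1.04e-06).

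Between the subsets in tumors, 3 of the 4 segments were called, and 83.3% of all J segments were. TRBJ2-1 was at 14.9%, 15.1%, 14.7% and 14.9% in the CD8+ tumors and at 10.5%, 10.8%, 10.9% and 10.8% in the CD4+ tumors of mice 5 to 8, with no overlap. CD4+ minus CD8+ was -0.47 on the log2 scale for TRBJ2-1 (SE 0.02, limma adjusted p = 4.82e-09), -0.19 for TRBJ2-7 (adjusted p = 7.97e-06) and 0.10 for TRBJ2-5 (adjusted p = 0.000906). TRBJ2-2, which was higher in CD4+ T cells in the dLN, had 5.58% ± 0.179 in CD4+ and 5.50% ± 0.109 in CD8+ tumors (SD, n = 4 mice), a log2 difference of 0.02 (adjusted p = 0.421), and its sign depended on mouse 8 and on the definition of a clone.

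The clone share of all 4 segments differed between tumor and dLN for CD8+ T cells, and 66.7% of the J segments did. The differences of the 4 were at most 0.10 on the log2 scale. TRBJ2-1, TRBJ2-2 and TRBJ2-7 rose and TRBJ2-5 fell. TRBJ2-2 was at 5.16%, 5.09%, 5.21% and 5.07% in the CD8+ dLN and at 5.57%, 5.55%, 5.54% and 5.33% in the CD8+ tumors of mice 5 to 8, and every tumor value was above every dLN value. The log2 difference was 0.10 for TRBJ2-2 (SE 0.02, limma adjusted p = 0.000719), 0.09 for TRBJ2-1 (adjusted p = 0.000491), 0.05 for TRBJ2-7 (adjusted p = 0.00917) and -0.07 for TRBJ2-5 (adjusted p = 0.00792). Without mouse 6, TRBJ2-7 and TRBJ2-5 had adjusted p = 0.0643 and 0.0542. A CD8+ tumor, with 2 libraries summed, was drawn from more reads than a dLN, and the part of this depth was not tested beyond a read minimum: with clones of at least 6 reads, limma made all 4 calls, in the same directions.

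In CD4+ T cells, 3 of the 4 segments were called between tumor and dLN, against 58.3% of all J segments. TRBJ2-1 was at 9.33%, 9.45%, 9.30% and 9.55% in the dLN and at 10.5%, 10.8%, 10.9% and 10.8% in the tumors, a rise of 0.19 on the log2 scale (SE 0.02, limma adjusted p = 3.54e-05). TRBJ2-5 was at 13.1%, 13.3%, 13.2% and 13.0% in the dLN and at 11.9%, 11.5%, 11.5% and 11.8% in the tumors, and fell by 0.17 (SE 0.02, adjusted p = 5.9e-05). The values of tumors and dLN did not overlap for either segment. TRBJ2-2 fell by 0.13 (adjusted p = 0.00171), and TRBJ2-7 had 19.4% ± 0.300 in tumors and 18.8% ± 0.390 in dLN (SD, n = 4 mice, adjusted p = 0.112). The exact permutation test over 70 splits gave each of the 3 the smallest p it can give, 0.0286, which was 0.0571 after adjustment. It thus made none of the 3 calls, but it could not have given them a lower p. TRBJ2-7 was called by limma in percentage points (adjusted p = 0.0103) and with all 4 groups in 1 fit (0.0342).

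The tumor minus dLN difference was itself compared between the subsets. It was called for 3 of the 4 segments, with 66.7% of the J segments called. For TRBJ2-2 the subsets moved in opposite directions, and the difference of the log2 differences, CD8+ minus CD4+, was 0.22 (SE 0.03, limma adjusted p = 1.62e-05). TRBJ2-1 rose in both and less in CD8+ T cells (-0.10, adjusted p = 0.000656), and TRBJ2-5 fell in both and less in CD8+ T cells (0.10, adjusted p = 0.00227). For TRBJ2-7 the difference was 0.01 (SE 0.02, adjusted p = 0.784).

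By reads, the shares in the dLN were close to the clone shares, and those in the CD8+ tumors were not. In the CD8+ dLN, TRBJ2-7 held 21.4%, 21.4%, 21.5% and 21.2% of the reads in mice 5 to 8, an SD of 0.116 percentage points. In the CD8+ tumors of the same mice it held 23.0%, 8.74%, 22.8% and 15.7%, an SD of 6.79. Mice 5 and 7 were above every dLN value and mice 6 and 8 below. The 4 segments together held 53.0% ± 0.571 of the reads in the CD8+ dLN, 42.2% ± 6.63 in the CD8+ tumors, 47.0% ± 1.3 in the CD4+ dLN and 44.3% ± 2.59 in the CD4+ tumors (SD, n = 4 mice).

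**Figure D2:**
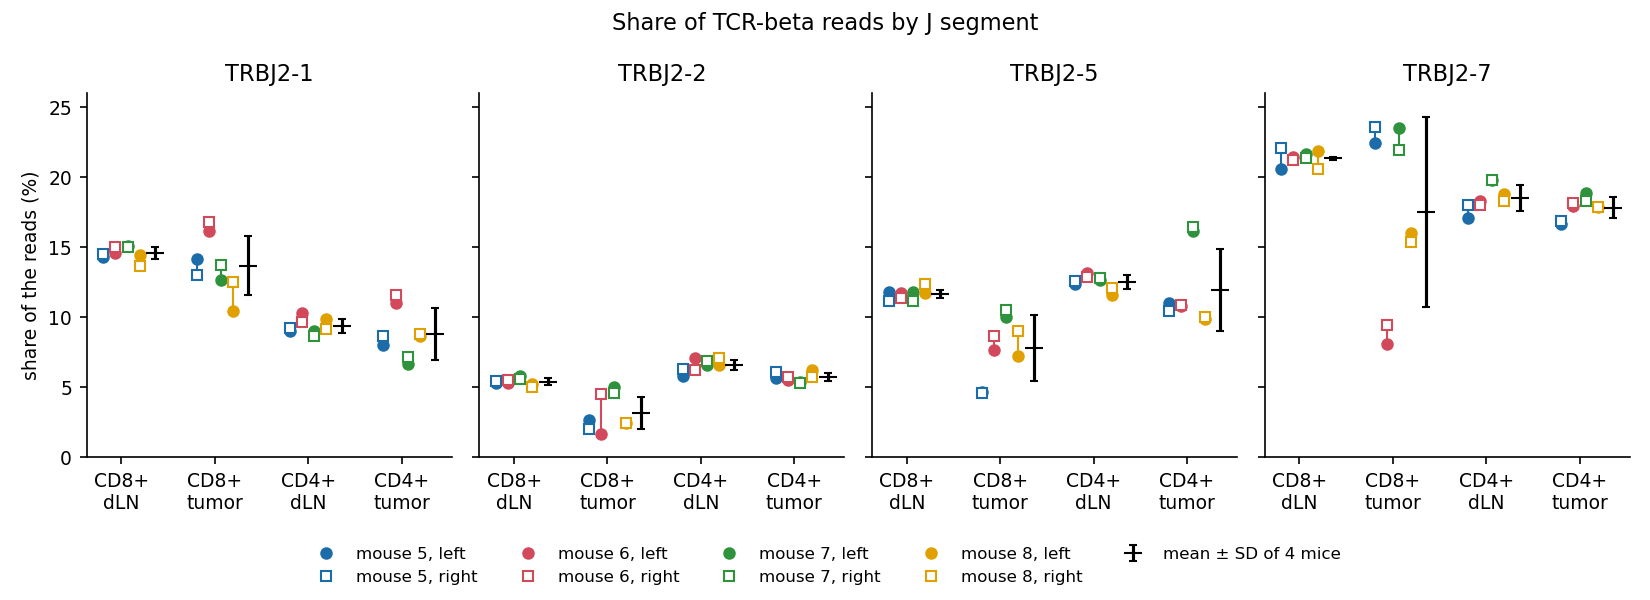
Share of the TCRβ reads (%) of each segment in the 4 groups, drawn as in the plot of clone shares, with left (circles) and right (squares) samples of a mouse joined by a line, and the mean ± SD of 4 mice in black. The dLN values lie close together, while those of CD8+ tumors spread between mice, for TRBJ2-7 from 8.74% in mouse 6 to 23.0% in mouse 5, with left and right near each other.

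TRBJ2-2 was the one of the 4 whose read share was called between CD8+ tumor and CD8+ dLN, where 25% of the J segments were. It held 5.39%, 5.39%, 5.70% and 5.14% of the reads in the dLN of mice 5 to 8 and 2.36%, 3.08%, 4.79% and 2.44% in the tumors. All tumor values were below all dLN values, and mouse 7 was the closest to them. The log2 difference was -0.83 (SE 0.26, limma adjusted p = 0.0437), and TRBJ2-2 went from rank 8 of 12 in the dLN to rank 12 in the tumors. When a replicate block for the mouse was fitted, the adjusted p was 0.0897 and 1 J segment instead of 3 was called. Without mouse 5, 6 or 8 the adjusted p was 0.234, 0.163 or 0.110, and without clones above 1% of their library the difference turned to 0.15 (adjusted p = 0.376). The exact permutation test gave an adjusted p of 0.0857, from the smallest p it can give, 0.0286.

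The other read shares of the 4 segments in CD8+ T cells did not pass the test between tumor and dLN. TRBJ2-5 held 11.5%, 11.6%, 11.5% and 12.1% in the dLN and 4.63%, 8.18%, 10.3% and 8.14% in the tumors of mice 5 to 8. The groups did not overlap, mouse 5 had the lowest tumor value, and the log2 difference was -0.64 (SE 0.26, limma adjusted p = 0.0945, and 0.0285 with all 4 groups in 1 fit). TRBJ2-1 had 14.6% ± 0.438 in the dLN and 13.7% ± 2.09 in the tumors (SD, n = 4 mice, log2 difference -0.10, adjusted p = 0.707). The log2 difference of TRBJ2-7 was -0.38 with an SE of 0.32 (adjusted p = 0.391).

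In CD4+ T cells, limma called the read share of no J segment between tumor and dLN, 0% of 12, with 2 at an unadjusted p under 0.05, and the exact permutation test over all splits called none. TRBJ2-2 was among those 2: it held 6.04%, 6.64%, 6.73% and 6.86% of the reads in the dLN of mice 5 to 8 and 5.87%, 5.63%, 5.35% and 5.98% in the tumors. The groups stood apart by less than the spread within the dLN group, and the log2 difference was -0.20 (SE 0.08, limma adjusted p = 0.214). TRBJ2-5 had 12.5% ± 0.507 in the dLN and 11.9% ± 2.92 in the tumors (SD, n = 4 mice), where mouse 7 had 16.3% and the other 3 mice 9.93% to 10.8%. Its log2 difference was -0.10, between -0.25 and -0.04 with 1 mouse left out, and -0.23 without clones above 1% of their library, which limma called (adjusted p = 0.0473).

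Between the subsets in the dLN, 3 of the 4 segments were called by reads, against 50% of all J segments, in the same direction as by clones. TRBJ2-1 held 9.37% ± 0.501 of the CD4+ and 14.6% ± 0.438 of the CD8+ reads (SD, n = 4 mice), a log2 difference of -0.64 (SE 0.05, limma adjusted p = 1.14e-06). TRBJ2-2 was higher in CD4+ T cells by 0.28 (adjusted p = 0.00136) and TRBJ2-7 lower, at -0.21 (adjusted p = 0.00318), while TRBJ2-5 differed by 0.10 (adjusted p = 0.0823, and 0.0129 without mouse 8). The calls of TRBJ2-2 and TRBJ2-7 were lost when all 4 groups shared 1 estimate of the spread (adjusted p = 0.534 and 0.907). The exact permutation test did not call TRBJ2-1, TRBJ2-2 or TRBJ2-7 (adjusted p = 0.0686 for each), though each had the smallest p this test can give, 0.0286. In percentage points, limma called TRBJ2-5 (adjusted p = 0.0282).

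Between the subsets in tumors, none of the 4 was called by reads, and 8.33% of all J segments were. TRBJ2-2 held 5.70% ± 0.281 of the CD4+ and 3.17% ± 1.13 of the CD8+ tumor reads (SD, n = 4 mice), higher in the CD4+ sample in 4 of 4 mice (log2 difference 0.91, SE 0.29, limma adjusted p = 0.0701, and 0.0187 without mouse 7). TRBJ2-1 had a log2 difference of -0.65 (adjusted p = 0.149), TRBJ2-5 of 0.64 (adjusted p = 0.197) and TRBJ2-7 of 0.12 (adjusted p = 0.730). When all 4 groups shared 1 estimate of the spread, limma called TRBJ2-1 (adjusted p = 0.00487), TRBJ2-2 (0.00139) and TRBJ2-5 (0.0285), and without clones above 1% it called TRBJ2-1 (adjusted p = 0.0216), while the differences of TRBJ2-5 and TRBJ2-7 turned to -0.00682 and -0.14. The test of the tumor minus dLN difference between the subsets called 8.33% of the J segments by reads and none of the 4, the nearest being TRBJ2-2 (-0.63, SE 0.27, adjusted p = 0.134).

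The read share of a segment in a CD8+ tumor was carried by few clones. The most frequent clone made up 36.9% ± 17.4 of the TRBJ2-1 reads, 28.5% ± 9.47 of those of TRBJ2-2, 37.2% ± 11.8 of TRBJ2-5 and 23.5% ± 5.48 of TRBJ2-7 (SD, n = 4 mice). In the CD8+ dLN these shares were between 0.684% and 1.26%, and in the CD4+ tumors between 4.62% and 13.8%. To cover 50% of the reads of a segment took 4 to 7.25 clones on average in CD8+ tumors, against 366.5 to 1519.75 in CD8+ dLN and 23 to 64.75 in CD4+ tumors.

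Clones above 1% of the reads on average over both tumors of a mouse were counted. In the CD8+ tumors, where the 4 segments made up 53.4% of the clones and 42.2% of the reads, there were 69. Of these, 26 used one of the 4 segments, or 37.7% (95% Wilson interval 27.2 to 49.5 on clones pooled over the mice, counting error only). TRBJ2-7 had 11 of them, TRBJ2-1 10, TRBJ2-5 4 and TRBJ2-2 1. Each mouse had 1 with TRBJ2-5, 1 to 4 with TRBJ2-1 and 1 to 4 with TRBJ2-7. They held 23.3%, 18.7%, 15.9% and 17.6% of the reads in mice 5, 6, 7 and 8, out of 62.2%, 60.9%, 34.5% and 58.3% held by all clones above 1%.

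**Figure D3:**
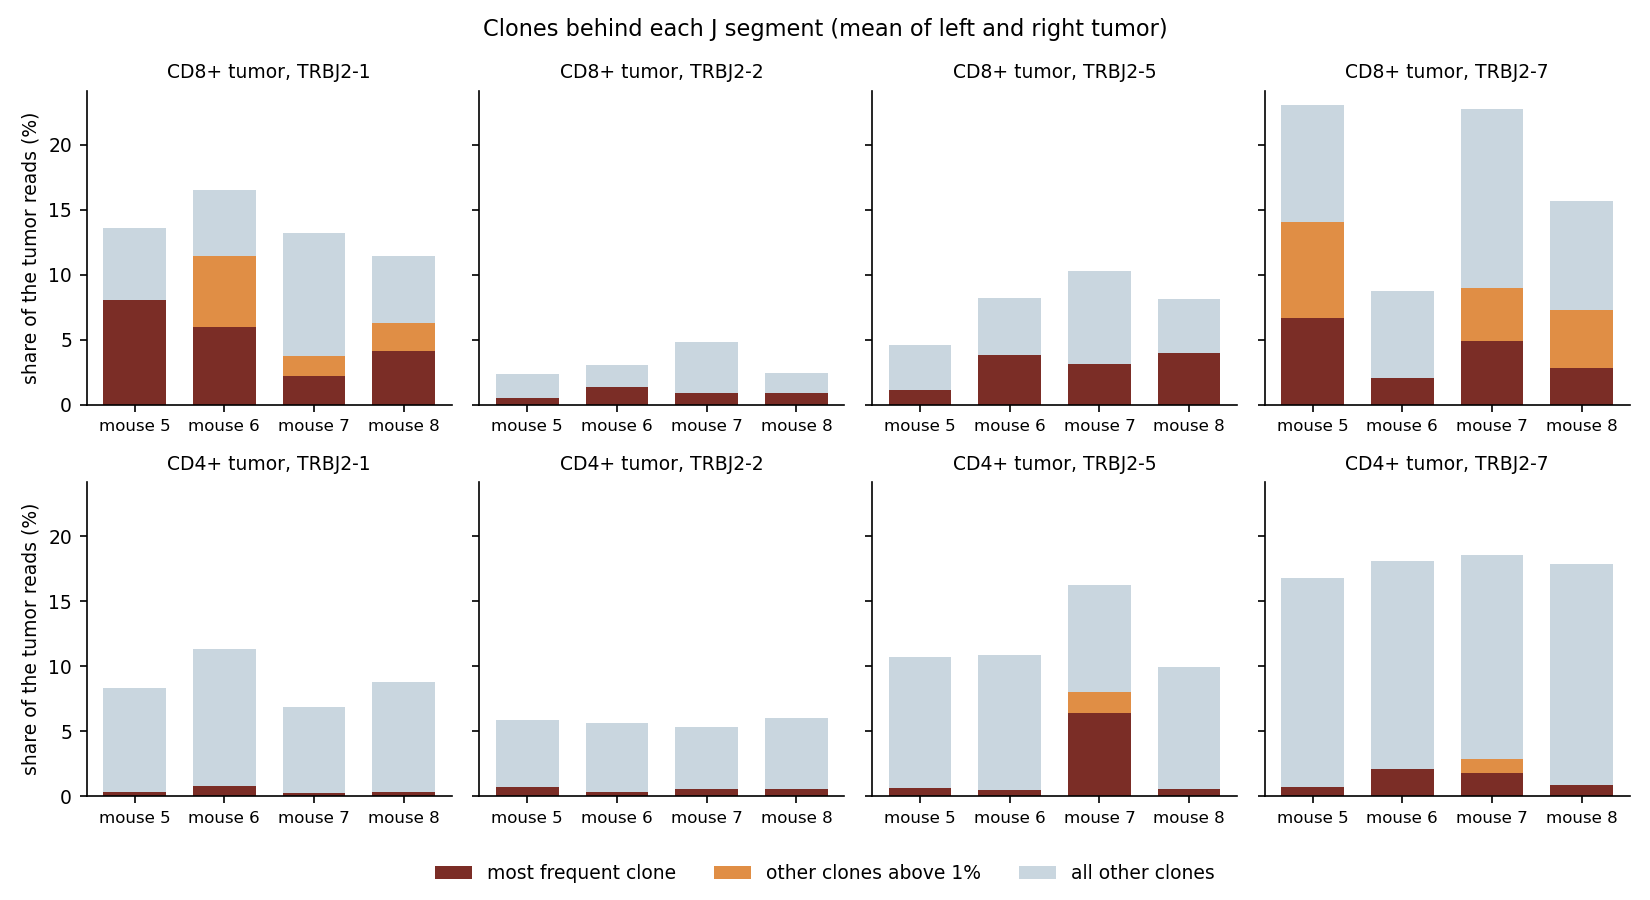
Share of the tumor reads (%, mean of left and right) of each segment by mouse, in CD8+ (top) and CD4+ tumors (bottom), divided into the most frequent clone of the segment, other clones above 1% and all other clones. In CD8+ tumors the large clones make up much of TRBJ2-1 and TRBJ2-7, as in mouse 5 with 14.1% of the reads in 3 TRBJ2-7 clones, while in CD4+ tumors the most is held by 2 TRBJ2-5 clones in mouse 7, with 8.01%.

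The CDR3 sequences of the most frequent TRBJ2-1 clone of each mouse in the CD8+ tumors are shown to compare how much of the segment each kept. In these and the following clones, the capitals mark the bases that match the germline segment without a break from the 3′ end.
CD8+ mouse 5, TRBV4 with TRBJ2-1: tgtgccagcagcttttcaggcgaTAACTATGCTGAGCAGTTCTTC
CD8+ mouse 6, TRBV13-1 with TRBJ2-1: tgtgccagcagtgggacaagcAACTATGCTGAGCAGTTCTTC
CD8+ mouse 7, TRBV19 with TRBJ2-1: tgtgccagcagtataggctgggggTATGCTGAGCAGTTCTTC
CD8+ mouse 8, TRBV19 with TRBJ2-1: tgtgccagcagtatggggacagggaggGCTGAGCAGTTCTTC

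The TRBJ2-1 clone of mouse 5 kept all 22 germline bases and that of mouse 8 kept 15. The mouse 5 clone had 8.51% of the reads on the left (95% Wilson interval on sorted cells 8.39 to 8.63) and 7.56% on the right (7.43 to 7.69), and was 59.2% of the TRBJ2-1 reads of that mouse. The clone of mouse 6 had 5.76% on the left and 6.24% on the right, that of mouse 7 had 1.90% and 2.48%, and that of mouse 8 had 3.57% and 4.65%. The clone of mouse 6 was found with 32 reads in the left dLN and with none in the right, where 3 reads are 0.000733%. None of the 4 was above 0.000872% in the CD8+ tumors of another mouse.

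The only TRBJ2-2 clone above 1% is shown with the TRBJ2-5 clones of mice 7 and 8, which both use TRBV12-2.
CD8+ mouse 6, TRBV14 with TRBJ2-2: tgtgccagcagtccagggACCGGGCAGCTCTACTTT
CD8+ mouse 7, TRBV12-2 with TRBJ2-5: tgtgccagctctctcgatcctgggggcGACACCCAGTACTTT
CD8+ mouse 8, TRBV12-2 with TRBJ2-5: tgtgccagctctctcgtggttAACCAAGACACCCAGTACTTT

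The TRBJ2-2 clone of mouse 6 differed most between the sides among the 16 named CD8+ clones. It held 0.348% of the left tumor (interval 0.331 to 0.365) and 2.43% of the right (2.37 to 2.49), 6.99-fold more, and was found in neither dLN of that mouse. The TRBJ2-5 clone of mouse 8 had 2.77% of the left and 5.14% of the right tumor, while that of mouse 7 had 3.10% and 3.09%. In the other mice, the most frequent TRBJ2-5 clone had 1.29% and 0.957% in mouse 5 (TRBV5) and 3.68% and 3.98% in mouse 6 (TRBV17), and the most frequent TRBJ2-2 clone was between 0.540% and 0.870% on average in mice 5, 7 and 8.

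The most frequent TRBJ2-7 clones kept between 12 and 16 of the 19 germline bases, and each used another V segment.
CD8+ mouse 5, TRBV20 with TRBJ2-7: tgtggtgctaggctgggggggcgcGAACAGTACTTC
CD8+ mouse 6, TRBV15 with TRBJ2-7: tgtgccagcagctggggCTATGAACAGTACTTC
CD8+ mouse 7, TRBV3 with TRBJ2-7: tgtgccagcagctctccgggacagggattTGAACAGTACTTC
CD8+ mouse 8, TRBV26 with TRBJ2-7: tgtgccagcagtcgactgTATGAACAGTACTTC

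The TRBJ2-7 clone of mouse 5 had 5.64% of the left (interval 5.55 to 5.74) and 7.69% of the right tumor reads (7.56 to 7.82). That of mouse 7 had 5.31% and 4.48%, and was found with 3 reads in its left dLN and with 9 in its right dLN. The clones of mice 6 and 8 had 2.13% and 2.0%, and 3.06% and 2.59%. Of the 16 named CD8+ clones, 13 were above 1%, 13 were found in both dLN of their mouse and 1 in neither. The 3 reads of the TRBJ2-7 clone of mouse 7 in its left dLN, 0.000825%, were below the highest frequency of a named CD8+ clone in the CD8+ tumors of another mouse, 0.000981%. The other dLN frequencies above 0 were 0.00168% or more, and the dLNs of other mice were not searched. Those of 0.00168%, 0.00194% and 0.00259% were below the highest frequency of a named CD4+ clone in the CD4+ tumors of another mouse, 0.00310%. The median fold difference of the 16 clones between the sides was 1.18, and 1 differed by more than 2-fold.

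In CD4+ tumors, where the 4 segments made up 47.3% of the clones and 44.3% of the reads, 5 of 13 clones above 1% used them. This was 38.5% (95% Wilson interval 17.7 to 64.5 on clones pooled over the mice), and 4 of the 5 were in mouse 7. The clones below had the highest frequency of TRBJ2-5 and TRBJ2-7 in the CD4+ tumors.
CD4+ mouse 7, TRBV14 with TRBJ2-5: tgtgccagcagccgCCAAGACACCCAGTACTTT
CD4+ mouse 6, TRBV1 with TRBJ2-7: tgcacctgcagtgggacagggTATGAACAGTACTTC

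The TRBJ2-5 clone of mouse 7 had 6.34% of the left (interval 6.25 to 6.43) and 6.47% of the right tumor reads (6.38 to 6.57), and made up 39.3% of the TRBJ2-5 reads of that mouse. It held 0.309% and 0.168% in the dLN. The TRBJ2-7 clone of mouse 6 had 2.06% and 2.14%. The most frequent CD4+ clones of TRBJ2-1 and TRBJ2-2 were at 0.786% in mouse 6 and 0.707% in mouse 5 on average, and the 4 clones differed by at most 1.09-fold between the sides.

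The read shares of the 4 segments in left and right samples were compared within and between mice. In CD8+ tumors, the sides differed in TRBJ2-7 by 1.16 percentage points within a mouse and by 8.32 between mice (exact permutation test over 24 pairings, one-sided, p = 0.0833, adjusted p = 0.1). For TRBJ2-5 the values were 0.832 and 3.05 with the same exact p, for TRBJ2-1 1.23 and 2.58 (exact p = 0.125), and for TRBJ2-2 1.01 and 1.56 (exact p = 0.417). The TRBJ2-2 difference was 2.87 points in mouse 6, the mouse with the clone of unequal frequency.

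The exact test called 0% of the J segments after adjustment in each of the 4 groups, with 7 of 12 at an unadjusted p under 0.05 in CD8+ tumors, 4 in CD4+ tumors, 2 in CD4+ dLN and 0 in CD8+ dLN. The smallest p this test can give is 0.0417, and the 7 segments at it in CD8+ tumors had an adjusted p of 0.0714. A call after adjustment was thus hardly possible, and the 0% decides nothing about how alike the sides were. In CD4+ tumors, TRBJ2-1 differed by 0.455 points within and 2.29 between mice, and TRBJ2-7 by 0.267 and 0.944, both with the smallest exact p (adjusted p = 0.0909). TRBJ2-5 had 0.303 and 3.22 (exact p = 0.0833) and TRBJ2-2 0.309 and 0.370 (exact p = 0.417). In the dLN, the sides differed by 0.206 to 0.793 points within a mouse and by 0.312 to 1.17 between mice for the 4 segments. The difference within a mouse was the larger one for TRBJ2-7 (0.793 and 0.516) and TRBJ2-5 (0.576 and 0.556) in CD8+ dLN and for TRBJ2-2 (0.532 and 0.505) in CD4+ dLN. The 2 parts of a CD8+ tumor differed by 0.639 to 1.40 points on average for the 4 segments, and those of a CD4+ tumor by 0.309 to 0.669.

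Clones found on both sides held 65.8% ± 4.27 of the TRBJ2-2 reads of CD8+ tumors, 74.4% ± 8.39 of TRBJ2-5, 76.5% ± 9.26 of TRBJ2-7 and 80.0% ± 7.55 of TRBJ2-1 (SD, n = 4 mice). By number these clones were 12.6% to 15.2% of the clones of a segment. In the CD8+ dLN, clones on both sides held 8.07% to 10.0% of the reads of the 4 segments. In CD4+ T cells, they held 79.1% to 84.5% in tumors and 44.3% to 51.5% in dLN.

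The V partners of the 4 segments were described by clones, as the number of clones of a V-J pair over the number given by the V and J clone shares of the same mouse, in the dLN. In the CD8+ dLN, limma called 47 pairs of the 4 segments, and 63.7% of the 237 pairs tested over all J segments. TRBJ2-5 departed most often, in 16 of 20 pairs, followed by TRBJ2-1 in 13 of 21, TRBJ2-7 in 10 of 22 and TRBJ2-2 in 8 of 19. In the CD4+ dLN, 18 pairs of the 4 segments were called and 36.2% of all 221. Without mouse 7 or 8, 47 or 46 of all CD4+ pairs were called instead of 80.

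**Figure D4:**
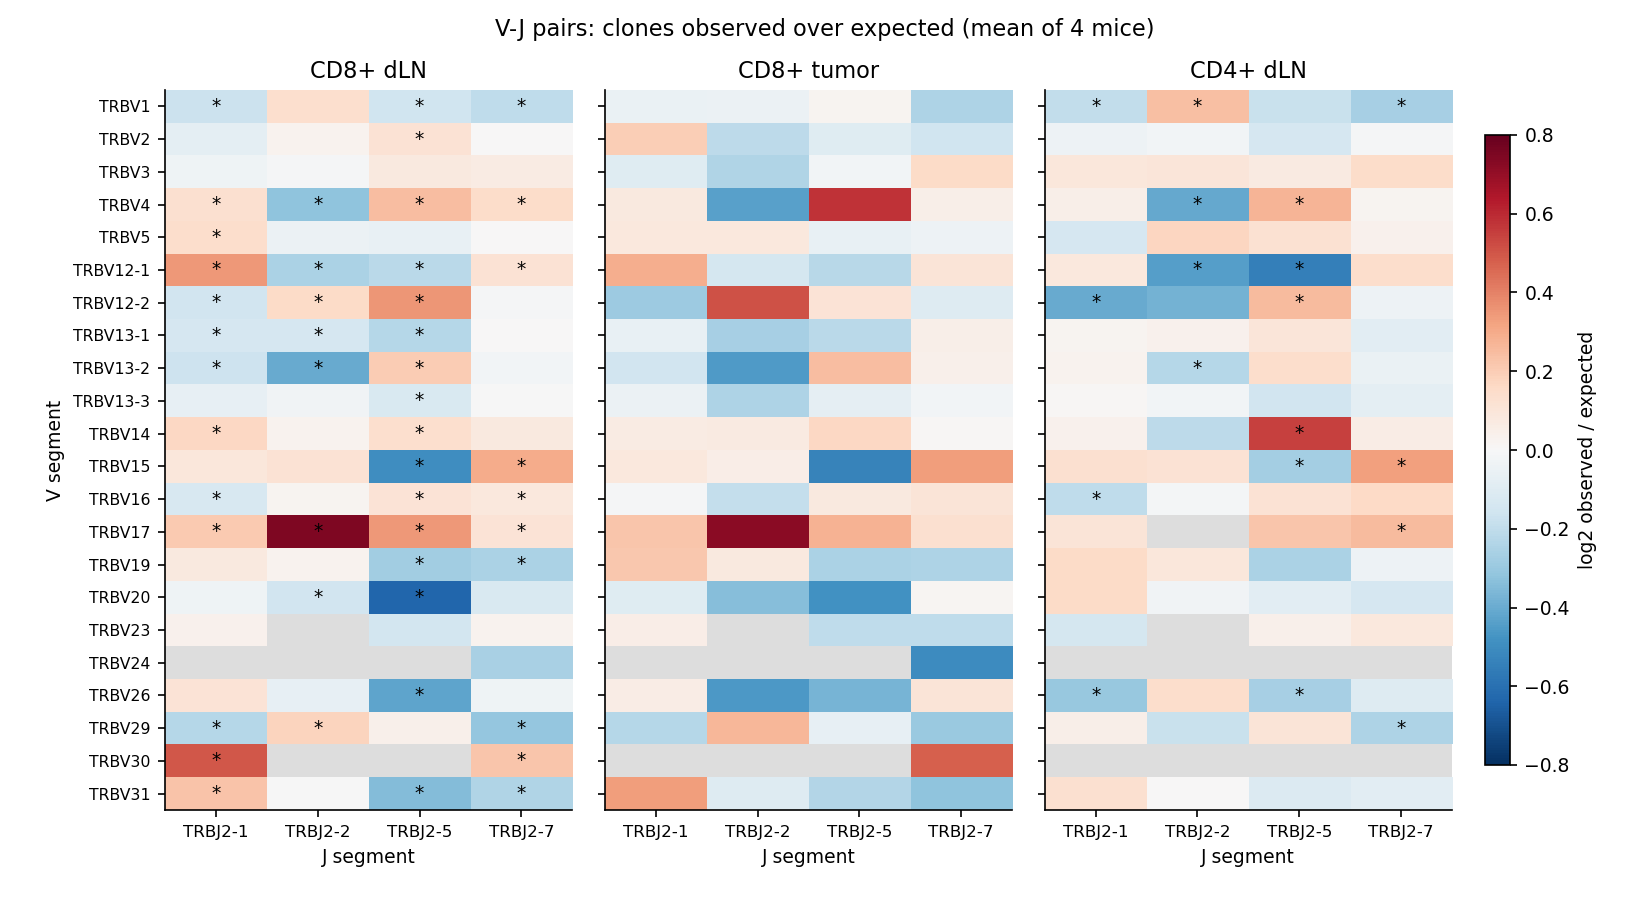
Clones observed over expected (log2, mean of 4 mice) for each V segment with the 4 J segments in CD8+ dLN, CD8+ tumors and CD4+ dLN. Red is more and blue fewer clones than expected, asterisks mark limma adjusted p under 0.05 in the dLN, the tumor panel was not tested, and grey cells had fewer than 20 expected clones in a mouse. TRBV17 with TRBJ2-2 is the highest cell in CD8+ dLN (0.74) and in CD8+ tumors (0.72).

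TRBV17 with TRBJ2-2 was the pair of the 4 segments most above expectation in the CD8+ dLN. Its log2 ratio was 0.83, 0.61, 0.77 and 0.76 in the CD8+ dLN of mice 5 to 8, a mean of 0.74 (SE 0.04, limma adjusted p = 6.71e-05). TRBV13-2, the most common partner of several segments, was below expectation with TRBJ2-2 at -0.41 (adjusted p = 0.00030). The ratios in the CD8+ tumors were 0.72 for TRBV17 and -0.45 for TRBV13-2.

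TRBJ2-5 was above expectation with TRBV12-2, at 0.38, 0.33, 0.34 and 0.35 in mice 5 to 8 (mean 0.35, SE 0.03, limma adjusted p = 0.000212). It was below with TRBV20, at -0.79, -0.54, -0.69 and -0.51 (mean -0.63, SE 0.05, adjusted p = 0.000216). In the CD4+ dLN, TRBV20 with TRBJ2-5 was at -0.08 (SE 0.07, adjusted p = 0.351). The difference of this pair between the subsets was not tested.

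TRBJ2-7 was paired more often with TRBV15 than expected, at 0.30 in the CD8+ dLN (SE 0.04, limma adjusted p = 0.000824) and 0.33 in the CD4+ dLN (adjusted p = 0.00563), and less often with TRBV29, at -0.31 (adjusted p = 0.000333) and -0.25 (adjusted p = 0.0149). TRBJ2-1 was above expectation with TRBV30 in the CD8+ dLN (0.49, SE 0.05, adjusted p = 0.000333) and below with TRBV29 (-0.23, adjusted p = 0.00192). In the CD4+ dLN, TRBV30 with TRBJ2-1 had under 20 expected clones and was not tested.

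In the tumors, counted once per clone, the V partners of the 4 segments shifted toward TRBV12-2 in CD8+ and toward TRBV13-2 in CD4+ T cells. These V segments were picked after their values were seen and are given without a test. Their shares among the clones of the other J segments were not computed. TRBV12-2 made up 17.4% ± 0.764 of the TRBJ2-2 clones in CD8+ tumors and 8.94% ± 0.656 in CD8+ dLN (SD, n = 4 mice). It made up 13.2% and 10.3% of the TRBJ2-5 clones, 11.4% and 8.00% of the TRBJ2-7 clones, and 9.99% and 7.27% of the TRBJ2-1 clones in tumors and dLN. TRBV13-2 made up 18.8%, 13.1%, 19.3% and 17.7% of the TRBJ2-1, TRBJ2-2, TRBJ2-5 and TRBJ2-7 clones in CD4+ tumors, and 11.8%, 9.93%, 12.7% and 11.2% in CD4+ dLN. Each of these clone shares was higher in the tumor in 4 of 4 mice. By reads, TRBV12-2 held less of TRBJ2-1 (3.67% and 8.53%) and TRBJ2-7 (4.84% and 9.36%) in CD8+ tumors than in dLN. It held more of TRBJ2-2 (18.0% and 9.02%) and TRBJ2-5 (26.2% and 12.2%), with tumor SDs of 19.3 and 24.6. TRBV13-2 held 14.9%, 8.01%, 13.0% and 10.6% of the reads of the 4 segments in CD4+ tumors, and 12.3%, 7.51%, 12.1% and 10.7% in dLN.

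CDR3 length followed the germline segments in order. The mean over clones was 44.1 nucleotides for TRBJ2-2, 42.7 for TRBJ2-1, 42.2 for TRBJ2-5 and 39.7 for TRBJ2-7 in the CD8+ dLN, the same order as the 23, 22, 21 and 19 germline bases, and this order held in each group. By clones, TRBJ2-7 had the shortest or next to shortest CDR3s of the 12 segments and TRBJ2-2 the longest or next to longest. The order did not hold over all J segments. In the CD8+ dLN, TRBJ2-3, with 21 germline bases, had a mean of 44.1 nucleotides, and TRBJ1-6, with 25, had 43.0. Among TRBJ2-2 clones, 15 residues was the most common length, and 14 residues among those of the other segments, except for TRBJ2-1 in CD4+ tumors, where it was 15.

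**Figure D5:**
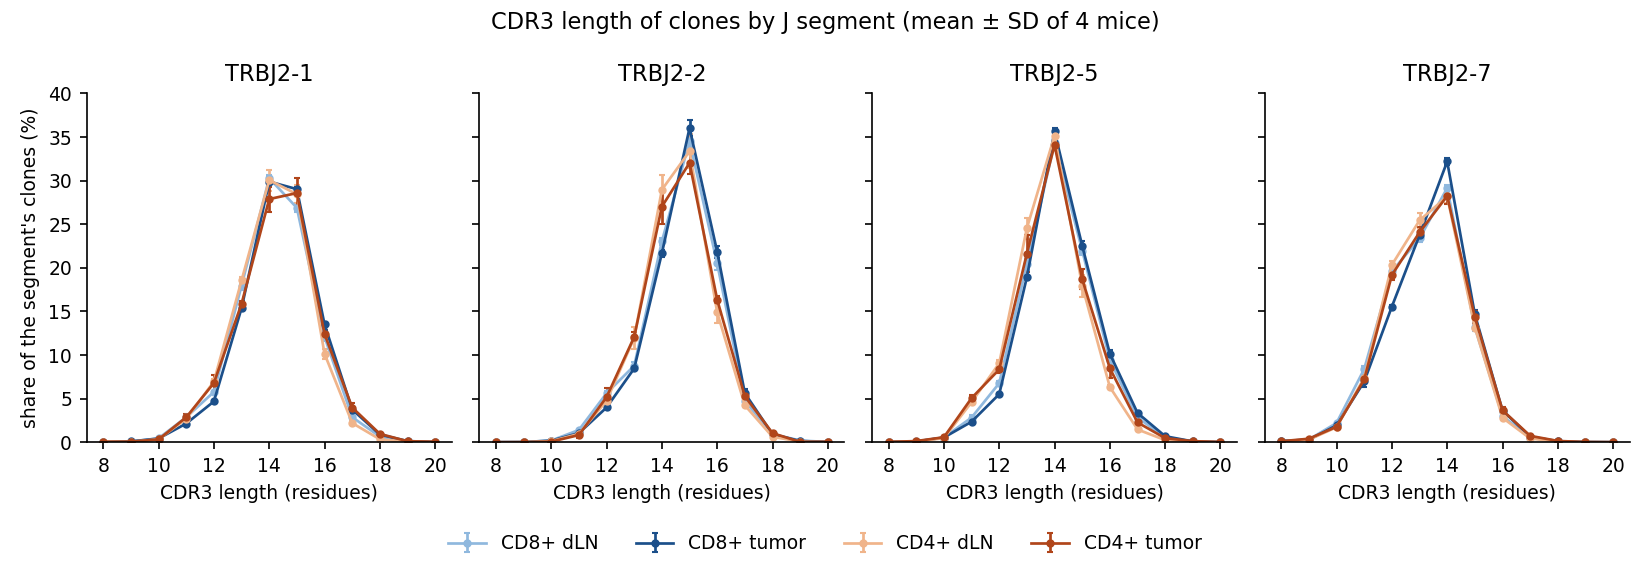
Share of the clones of a segment (%) by CDR3 length in residues, with lines for the 4 groups and bars of the SD over 4 mice. The curves of the groups lie close together and peak at 14 or 15 residues, and the tumor curves lie slightly lower than the dLN curves at 12 residues in CD8+ T cells. For TRBJ2-7 in CD8+ T cells, 32.2% of the tumor and 29.2% of the dLN clones have 14 residues.

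CDR3s were longer in tumors than in dLN by less than 1 nucleotide. For TRBJ2-7, the CD8+ dLN of mice 5 to 8 had means of 39.5, 39.7, 39.7 and 39.7 nucleotides and the CD8+ tumors 39.95, 40.2, 40.2 and 40.2, with no overlap. The difference was 0.490 nucleotides (SE 0.0629, limma adjusted p = 4.58e-10). The SE was the same for TRBJ2-1 and TRBJ1-6, whose SDs over the CD8+ tumors were 0.00982 and 0.140 nucleotides. In the length tests, limma thus used a spread pooled over the J segments, not that of each segment. The small p-values for length, here and below, rest on this pooling. All 4 segments were called in CD8+ T cells, where 100% of the J segments were. TRBJ2-1 rose by 0.475 (adjusted p = 6.14e-10), TRBJ2-2 by 0.340 (adjusted p = 2.33e-06) and TRBJ2-5 by 0.282 (adjusted p = 4.02e-05).

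In CD4+ T cells, 3 of the 4 were called between tumor and dLN, and 91.7% of all J segments. TRBJ2-1 rose by 0.467 nucleotides (SE 0.0968, limma adjusted p = 2.29e-05), TRBJ2-5 by 0.327 (adjusted p = 0.00156) and TRBJ2-7 by 0.225 (adjusted p = 0.0251). TRBJ2-2 had 43.8 ± 0.0705 nucleotides in tumors and 43.6 ± 0.165 in dLN (SD, n = 4 mice, adjusted p = 0.0824), and was called with the mouse as a replicate block (adjusted p = 0.0283) and without mouse 5 or 6 (adjusted p = 0.0281 and 0.0283). The call of TRBJ2-7 was lost without mouse 7 or 8 (adjusted p = 0.139 and 0.0731). The values of tumors and dLN overlapped for TRBJ2-5 and TRBJ2-7, and the exact permutation test over 70 splits called neither (adjusted p = 0.0623 for each). The test of this difference between the subsets called 8.33% of the J segments and none of the 4, with adjusted p of 0.287 or more for TRBJ2-1, TRBJ2-2 and TRBJ2-5. For TRBJ2-7 it was 0.265 nucleotides larger in CD8+ T cells (SE 0.115, adjusted p = 0.0932, and 0.0445 with the block).

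CDR3s were shorter in CD4+ than in CD8+ T cells for most of the segments. Between the dLN subsets, 3 of the 4 segments were called and 83.3% of all. TRBJ2-5 had 41.3 ± 0.0938 nucleotides in CD4+ and 42.2 ± 0.0781 in CD8+ dLN (SD, n = 4 mice), a difference of -0.884 (SE pooled over the J segments 0.0744, limma adjusted p = 2.94e-18). TRBJ2-2 differed by -0.463 (adjusted p = 5.12e-08) and TRBJ2-1 by -0.229 (adjusted p = 0.004), while TRBJ2-7 differed by 0.0229 (adjusted p = 0.759). Between the subsets in tumors, all 4 were called, with 75% of all J segments, and all were shorter in CD4+ T cells, the difference being -0.839 for TRBJ2-5 (adjusted p = 6.97e-14), -0.632 for TRBJ2-2 (adjusted p = 1.3e-09), -0.242 for TRBJ2-7 (adjusted p = 0.0116) and -0.237 for TRBJ2-1 (adjusted p = 0.0121). The call of TRBJ2-7 was lost without mouse 7 or 8 (adjusted p = 0.0631 and 0.0767), and that of TRBJ2-1 without mouse 5 or 8 (adjusted p = 0.102 and 0.0702). The exact permutation test did not call TRBJ2-7 (adjusted p = 0.0762). With each clone weighted by its reads, the tumor differences of TRBJ2-2 and TRBJ2-7 turned to 0.49 and 1.03 (limma adjusted p = 0.714 and 0.599). The call of TRBJ2-1 in tumors was lost (adjusted p = 0.714), as were those of TRBJ2-1 and TRBJ2-2 in the dLN (adjusted p = 0.893 and 0.260).

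Among the TRBJ2-7 clones of CD8+ T cells, CDR3s of 11 residues or fewer made up 9.41% in tumors and 11.1% in dLN. The shares among CD4+ T cells were 9.58% and 9.57% for TRBJ2-7, and for TRBJ2-5 they were 5.84% and 5.18%, higher in the tumor in 4 of 4 mice. Among the TRBJ2-2 clones of CD8+ T cells, those of 16 residues or more made up 28.6% and 26.4%.

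The length was divided into the bases matching the germline J segment and all other bases of the CDR3, which come from the V and D segments and the junctions. In the CD8+ dLN, a clone kept on average 18.6 of 22 bases of TRBJ2-1, 20.5 of 23 of TRBJ2-2, 17.9 of 21 of TRBJ2-5 and 15.1 of 19 of TRBJ2-7. The other bases numbered 24.04, 23.6, 24.3 and 24.5, so that the segments differed by less in these than in their own part. From dLN to tumor in CD8+ T cells, the other bases were higher in 4 of 4 mice for each segment, by 0.346 to 0.438 on average, while the J part differed by -0.0978 to 0.124, with no test of either. In CD4+ T cells the other bases were higher by 0.188 to 0.402.

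Weighted by reads, CDR3 length varied more between the CD8+ tumors. The read-weighted mean of TRBJ2-7 was 34.7, 38.6, 40.5 and 38.1 nucleotides in the CD8+ tumors of mice 5 to 8, against 39.4, 39.6, 39.5 and 39.6 in the dLN. Mouse 5 had the lowest value and mouse 7 the highest, above every dLN value. By this measure, the tumor minus dLN difference in CD8+ T cells was -1.54 nucleotides for TRBJ2-7 (limma adjusted p = 0.467) and 0.282 for TRBJ2-1 (adjusted p = 0.940), with no call among the 4 segments in either subset.

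Across the 8 CD8+ tumors, the read share of TRBJ2-1 followed that of TRBJ1-2 most closely among the other J segments (Spearman's rho 0.857), TRBJ2-2 and TRBJ2-5 followed each other (0.690), and TRBJ2-7 followed TRBJ1-3 (0.595). The left and right tumors of a mouse enter as separate points, and shares of a whole are not independent, so these values are a description.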

How the data were processed

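TCRβ libraries of CD8+ and CD4+ T cells were made by 5′ template-switching PCR and sequenced by the authors, who trimmed adapters with Cutadapt 3.2, assigned V, D, J and CDR3 with MiXCR against IMGT references and wrote 1 table per library in VDJtools form. Each table holds, per clone, the read count and its fraction of the library, as deposited by the authors, before the down-sampling that the study's methods describe. That step was redone here as 1 seeded draw without replacement to 6 reads per sorted cell, since the design had been set for down-sampled tables. The deposited fraction equalled the count over the library total and was recomputed after the draw. No molecular identifiers were used, so intervals and limits of detection cover counting error only. Intervals were computed by Wilson's method at 95% on the number of sorted cells.

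Of 13 J segments listed, the 12 with a median read share of at least 0.1% were tested. The 2 libraries of a tumor were summed, left and right were averaged, and the 4 mice of each group were compared with limma 3.58.1 in R 4.3.3, on log2 shares or CDR3 nucleotides without a block, with Benjamini-Hochberg adjustment over the 12 segments and a threshold of 0.05. V-J pairs with at least 20 expected clones in every mouse were tested on log2 observed over expected clones with a pseudocount of 0.5. Left-right differences were tested by an exact permutation test of the 24 pairings of left with right samples. Scripts ran in Python 3.11.15 with numpy 2.4.6, pandas 2.3.3, scipy 1.17.1 and matplotlib 3.10.9 and were tested on simulated data.

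The same mouse number is the same animal in all groups, per the labels, which pairs the samples. The correlation of same-mouse deviations over the J segments ranged from -0.535 to 0.791, and a fit with the mouse as a replicate block was an alternative. Other alternatives were reads as deposited, other clone definitions, read minimums, scales, thresholds and fits, the removal of abundant clones, and each mouse left out. The members, lists and rules were chosen with earlier results of these data known. Named were the 4 segments, the most frequent clone of each segment in each mouse for CD8+ tumors and over all mice for CD4+ tumors, the called V partner with the highest and the lowest ratio in CD8+ dLN, and the J segment most alike in read share. Germline sequences and positions are those of GENCODE genes on GRCm38.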

Additional observations from a re-analysis of the deposited data

Results flagged for a closer look

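For 5 of 48 sets of 4 mouse values, 1 mouse lay further from the other 3 than the critical value of Dixon's test, which chance gives in about 1 of 20 sets. The read share of TRBJ2-5 in CD4+ tumors was 16.3% in mouse 7 and 9.93% to 10.8% in the other mice, and the clone with TRBV14 made up 39.3% of the TRBJ2-5 reads of mouse 7. Its read share in CD8+ dLN was 12.1% in mouse 8 and 11.5% to 11.6% in the others. By clones, TRBJ2-2 was at 5.33% of the CD8+ tumor clones in mouse 8 and at 5.54% to 5.57% in the others, and TRBJ2-5 was at 10.7% in mouse 6 and at 10.9% in the others. The mean CDR3 of TRBJ2-7 clones in CD8+ tumors had 39.95 nucleotides in mouse 5 and 40.2 in the others.

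The difference between tumor and dLN in clone share was not the same in CD8+ and CD4+ T cells for 3 segments, by the limma test of the difference itself over 4 mice per group. CD8+ minus CD4+ was 0.22 on the log2 scale for TRBJ2-2 (SE 0.03, adjusted p = 1.62e-05), 0.10 for TRBJ2-5 (SE 0.03, adjusted p = 0.00227) and -0.10 for TRBJ2-1 (SE 0.02, adjusted p = 0.000656).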

How the results depend on the processing

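Of 32 called results of the 4 segments, 11 kept direction and call in every alternative run. Clone counts and read shares are limited by depth, since a dLN sample is 1 library and a tumor sample 2, and with 4 mice a side the exact permutation test over 70 splits has a smallest p of 0.0286 before adjustment.

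When a replicate block for the mouse was fitted, the pairing being by animal, the number of J segments called by read share between CD8+ tumor and dLN was 1 instead of 3. The block ended the call of TRBJ2-2 there and added the length of TRBJ2-2 between CD4+ tumor and dLN and the length difference of TRBJ2-7 between the subsets, and it changed no other call of the 4 segments.

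For read share between CD8+ tumor and dLN, the count of 3 was 1 in percentage points, 5 with all 4 groups in 1 fit, and 0 to 3 with 1 mouse left out, the 0 being without mouse 5. Without clones above 1% of their library limma made 0 calls there, and 2 instead of 0 (TRBJ2-5 being 1) between CD4+ tumor and dLN, where percentage points gave 1. Between the subsets in tumors, 1 call became 5 with all 4 groups in 1 fit, 1 to 3 with 1 mouse left out (2 without mouse 7, 3 without mouse 8) and 3 without clones above 1%. In the dLN, 6 became 2 with all 4 groups in 1 fit. The exact test made 0 calls by read share in each of these comparisons and 0 instead of 7 by clone share between CD4+ tumor and dLN, where limma made 7. It also ended the length calls of TRBJ2-5 and TRBJ2-7 between CD4+ tumor and dLN and of TRBJ2-7 between the subsets in tumors. V-J calls in CD4+ dLN went from 80 to between 46 and 70 with 1 mouse left out (47 without mouse 7, 46 without mouse 8). Clones of the 4 segments above 0.5% and 2% numbered 52 and 14 in CD8+ tumors, against 26 above 1%, and 19 and 2 in CD4+ tumors, against 5, which became 1 to 5 with 1 mouse left out (1 without mouse 7).

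Without clones above 1%, log2 read share differences turned to 0.15 (TRBJ2-2, CD8+ tumor minus dLN), 0.000304 (TRBJ2-1, CD4+ tumor minus dLN), -0.00682 and -0.14 (TRBJ2-5 and TRBJ2-7, CD4+ minus CD8+ tumor), and the bilateral difference of TRBJ2-5 in CD8+ tumors, between minus within mice, to -0.44 points. With 1 mouse left out, TRBJ2-7 read share, CD4+ minus CD8+ tumor, ranged from -0.19 (without mouse 6) to 0.32. TRBJ2-2 clone share in the same comparison ranged from -0.0132 (without mouse 8) to 0.0405, and was -0.00584 with at least 6 reads and -0.00349 by amino acids.

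Weighted by reads, CDR3 length differed in 0, 0, 2 and 6 of 12 J segments instead of 12, 11, 9 and 10 (CD8+ and CD4+ tumor against dLN, then the subsets in tumor and dLN). It turned to -0.92 (TRBJ2-2) and -1.54 (TRBJ2-7) nucleotides for CD8+ tumor minus dLN, to -0.220, -0.221, -1.21 and -0.49 (TRBJ2-1, TRBJ2-2, TRBJ2-5, TRBJ2-7) for CD4+ tumor minus dLN, and to 0.49 (TRBJ2-2) and 1.03 (TRBJ2-7) for CD4+ minus CD8+ tumor. TRBJ2-7 in the dLN was -0.0234 by reads, -0.0225 by amino acids and -0.0219 to 0.0614 with 1 mouse left out, turning without mouse 5 (-0.00335) or 6. The causes were not tested.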

Other observations

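The share of clones assigned TRBD2 is given for each segment as a description. Of TRBJ2-5 clones with a D call, 61.6% had TRBD2 in the CD8+ dLN and 66.8% in the CD8+ tumors. The shares were 59.4% and 63.9% for TRBJ2-7, 57.9% and 62.6% for TRBJ2-1, and 47.1% and 51.6% for TRBJ2-2, and for each segment the ranges of the mice in tumor and dLN did not overlap. The shares for TRBJ2-3 and TRBJ2-4 were 60.9% to 62.7% in the CD8+ dLN and 63.9% to 64.6% in the CD8+ tumors. For CD4+ T cells, dLN and tumors had 54.8% and 57.1% for TRBJ2-1, 43.5% and 43.2% for TRBJ2-2, 54.3% and 57.5% for TRBJ2-5, and 58.3% and 59.1% for TRBJ2-7. Among clones with TRBJ1 segments and a D call, 4.95% to 10.1% were assigned TRBD2 in the 4 groups. No test was run on these shares.

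Clonotypes with the same V segment, J segment and CDR3 residues in all 4 mice were counted. There were 1568 in CD8+ tumors, of which 528 used TRBJ2-7, or 33.7%, against 20.7% of the clonotypes found in any mouse. TRBJ2-1 had 261, or 16.6% against 14.6%, TRBJ2-5 had 170, or 10.8% against 10.9%, and TRBJ2-2 had 54, or 3.44% against 5.74%. In CD8+ dLN, 558 of 1794 used TRBJ2-7, or 31.1% against 20.1%, while TRBJ2-1 had 13.8% against 13.9%, TRBJ2-5 11.4% against 11.4% and TRBJ2-2 2.23% against 5.54%. Of 123 in CD4+ tumors, TRBJ2-7 had 29, or 23.6% against 19.0%, TRBJ2-5 had 20, or 16.3% against 11.5%, TRBJ2-2 had 11, or 8.94% against 5.49%, and TRBJ2-1 had 7, or 5.69% against 11.2%. Of 257 in CD4+ dLN, TRBJ2-7 had 72, or 28.0% against 18.2%, TRBJ2-5 37, or 14.4% against 13.1%, TRBJ2-1 15, or 5.84% against 9.75%, and TRBJ2-2 10, or 3.89% against 6.19%. These shares describe the clonotypes of 1 set of 4 mice and were not tested.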
